A study of Mus musculus with 2 samples.

Results

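The amyloid precursor family and its beta-secretases were described here through 10 genes in embryonic mouse forebrain. App, Aplp1 and Aplp2 encode the precursor proteins, Bace1 and Bace2 the beta-secretases, Apbb1 and Apbb2 the Fe65-type adaptors, Apba1 and Apba2 the X11-type adaptors, and Itm2b the BRI-type protein that binds App. The genes were chosen by name and matched to the gene tables through their Ensembl identifiers, which found 10 of 10 among 43346 genes. Total RNA over 200 nt from whole forebrain of B6NCrl mouse embryos at 16.5 days was sequenced from 10 ng with added spike-in RNA. The series holds 1 group of healthy, untreated embryos with 2 biological replicates, each a pool of tissue from both sexes; the second pool came from 41 embryos. The forebrain was taken whole, so each value is a mean over all its cell types, and fewer cells of a type cannot be told apart from less RNA per cell.

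App is a membrane protein that is cut in steps. Alpha-secretases or beta-secretases remove the extracellular part, and the gamma-secretase complex then cuts the remaining stub inside the membrane; beta followed by gamma cutting releases the amyloid beta peptide. Aplp1 and Aplp2 are cut by the same kinds of enzymes but lack the amyloid beta sequence, and Fe65 and X11 proteins bind the shared cytoplasmic tail. In the developing brain the family is known for roles in neuron adhesion, migration and synapse formation.

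The gene tables summed to 31211128 expected counts in replicate 1 and 26957198 in replicate 2, of which the 10 genes held 0.277% and 0.269%. Levels are in TPM, a relative transcript abundance scaled to a fixed sum per library and for transcript length so that different genes can be set side by side. Errors after ± are the SD over the 2 pools (n = 2). Markers of neurons summed to 2889 and 2731 TPM and those of radial glia to 1693 and 2131 TPM, while the astrocyte pair Gfap and Aqp4 summed to 1.91 and 3.40 TPM and the oligodendrocyte gene Mobp stood at 0.06 and 0.03 TPM. No marker gene was at 0 in both pools. With 1 group there was nothing to test between conditions, and no p-values are given.

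The precursor family was led by Aplp1. Aplp1 (ENSMUSG00000006651, chr7:30434982-30445535, minus strand, mm10) reached 522 TPM in the first pool and 484 TPM in the second, a mean of 503 ± 26.7 TPM. It ranked 179th and 204th among 21474 protein-coding genes. App (ENSMUSG00000022892, chr16:84949685-85173766, minus strand) stood at 239 and 244 TPM, a mean of 241 ± 3.67 TPM, and ranked 596th in both pools. Aplp2 (ENSMUSG00000031996, chr9:31149557-31211815, minus strand) had 155 and 167 TPM, a mean of 161 ± 8.15 TPM. The order of the 3 genes was the same in both pools, and their ranges did not overlap. Together they summed to 916 and 895 TPM, of which Aplp1 made up 55.5% ± 2.04, App 26.7% ± 0.843 and Aplp2 17.8% ± 1.19. Within a library, App lay below Aplp1 by a mean log2 ratio of -1.06 ± 0.10, which is 2.08-fold, and above Aplp2 by 0.59 ± 0.05, which is 1.50-fold. A pair counts as apart here if its sign agreed in both pools and its mean log2 ratio was over 3 SD, and all 3 pairs of precursor genes were apart.

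**Figure D1:**
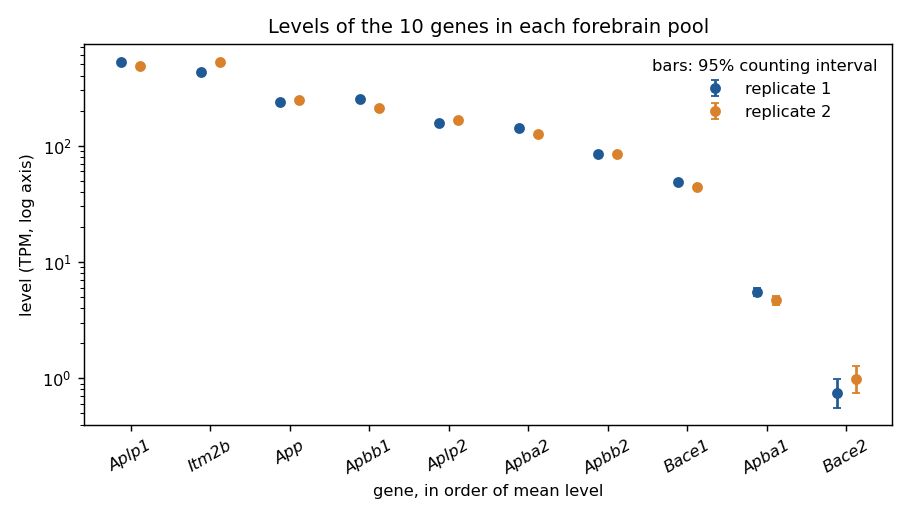
Level of each of the 10 genes (TPM, log axis) in forebrain replicate 1 and replicate 2, with 95% counting intervals as bars. Aplp1 and Itm2b lie highest, at 432.84 to 521.82 TPM, and Bace2 lies below 1 TPM in both pools.

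The precursor genes carry alternative exons, and the best known of them encodes a Kunitz-type protease inhibitor domain, which App and Aplp2 have and Aplp1 lacks. The transcript tables listed Aplp2 as 2 models. Aplp2-201, with 751 codons, holds the 168-base inhibitor exon, and Aplp2-202, with 707 codons, lacks it and holds a 36-base exon further downstream. Aplp2-201 had 102 and 108 TPM, or 65.5% and 64.9% of the gene, a mean of 65.2% ± 0.368. Aplp2-202 had 53.6 and 58.4 TPM, or 34.5% and 35.1%. The share of inhibitor-containing Aplp2 thus differed by less than 1 percentage point between pools. Because the 2 models differ in both exons, each share describes the 168-base exon and the 36-base exon together, and a form with both or with neither was not measured.

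App was listed as 1 model only. That model, App-201, has 16 exons and 695 codons and holds neither the inhibitor exon nor the exon that follows it, so its share of 100% follows from the list and is not a measured splice choice. The longer model App-206, with 18 exons and 770 codons in GENCODE M21, was not listed, and inclusion of its extra exons of 168 and 57 bases was not measured. The inhibitor exons of App and Aplp2 are shown to let the shared coding sequence be seen: both are 168 bases or 56 codons long, and 114 of 168 positions are identical (67.9%). Capitals mark identical positions; the App exon is at chr16:85043576-85043743 and the Aplp2 exon at chr9:31167561-31167728, both on the minus strand.
App inhibitor exon: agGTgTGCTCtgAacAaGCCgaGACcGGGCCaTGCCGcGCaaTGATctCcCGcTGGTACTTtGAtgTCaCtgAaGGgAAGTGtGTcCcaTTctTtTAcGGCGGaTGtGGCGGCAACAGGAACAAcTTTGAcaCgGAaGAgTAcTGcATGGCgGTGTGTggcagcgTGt
Aplp2 inhibitor exon: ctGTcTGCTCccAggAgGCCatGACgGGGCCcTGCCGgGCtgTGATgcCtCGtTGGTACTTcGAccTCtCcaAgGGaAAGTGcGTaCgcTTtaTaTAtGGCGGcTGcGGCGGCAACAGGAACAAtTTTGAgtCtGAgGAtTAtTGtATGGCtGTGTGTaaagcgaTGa

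The second Aplp2 exon that separates its models lies at chr9:31156190-31156225 and adds 12 codons. The other exon that App-206 holds and App-201 lacks lies at chr16:85040251-85040307 and adds 19 codons. Both are printed because the first is tied to the measured Aplp2 shares and the second marks what the App value leaves unmeasured.
Aplp2 short exon: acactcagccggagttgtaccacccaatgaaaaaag
App next exon: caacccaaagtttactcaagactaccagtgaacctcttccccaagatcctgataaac

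Of the beta-secretases, Bace1 made up nearly all. Bace1 (ENSMUSG00000032086, chr9:45838580-45864399, plus strand) encodes the main beta-secretase of neurons and stood at 48.4 and 43.9 TPM, a mean of 46.1 ± 3.17 TPM. Bace2 (ENSMUSG00000040605, chr16:97356742-97442936, plus strand) encodes its relative, known mainly from tissues outside the brain, and had 0.75 and 0.98 TPM. These Bace2 values rest on 51 and 56 counts, with 95% Poisson intervals of 0.558 to 0.986 TPM and 0.740 to 1.27 TPM, so the pools were not separable for this gene. A count of 0 would have allowed up to 0.0441 and 0.0525 TPM (3 counts), so Bace2 lay above that limit in both pools. Bace1 contributed 98.5% and 97.8% of the summed beta-secretase TPM, and the mean log2 ratio of Bace1 to Bace2 was 5.75 ± 0.37, which is 53.7-fold; with a pseudocount of 1 TPM it was 4.66, or 25.3-fold. As gene totals, Bace1 lay 5.24-fold below App (log2 -2.39 ± 0.12).

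Bace1 was divided among 3 listed transcripts with reads, and 3 other listed ones were at 0. Bace1-201, with all 9 exons and 501 codons, held 49.1% and 54.1% of the gene's TPM, a mean of 51.6% ± 3.58. Bace1-204 is annotated as a retained-intron transcript without a coding sequence, starts 14.1 kb inside the gene, and held 47.1% and 38.8%, a mean of 43.0% ± 5.88. As shares of expected counts, Bace1-204 held 31.8% and 25.2%, since it is the shorter model. Of its 3146 bases, 2981 also lie in Bace1-201 and 165 do not, while Bace1-201 has 3077 bases that Bace1-204 lacks. The stretch specific to the longer Bace1-201 includes 975 bases that overlap exons of Rnf214 on the opposite strand (75.6 and 70.2 TPM), and all 3 transcripts share 135 bases with the antisense gene Gm16536 (7.53 and 5.85 TPM). Whether counting used strand is not given in the sources used here, so reads from these neighbours cannot be told apart from Bace1 reads there.

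The coding sequences of Bace1-201 and Bace1-202 differed at 1 exon. Bace1-202, with 467 codons, lacks the 102-base exon 6 and held 3.81% and 7.04% of the gene's TPM. It also ends 1915 bases before Bace1-201, so its share describes exon 6 and the 3′ end together. Transcripts with exon 6, the retained-intron Bace1-204 included, held 96.2% and 93.0%, a mean of 94.6% ± 2.29. Between the 2 coding transcripts alone, the one with exon 6 held 92.8% and 88.5%. The exon, at chr9:45858400-45858501 on the plus strand, encodes 34 codons of the protease and is shown because it is the coding difference between these transcripts.
Bace1 exon 6: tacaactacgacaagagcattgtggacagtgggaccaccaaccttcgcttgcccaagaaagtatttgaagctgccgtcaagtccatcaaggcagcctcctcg

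**Figure D2:**
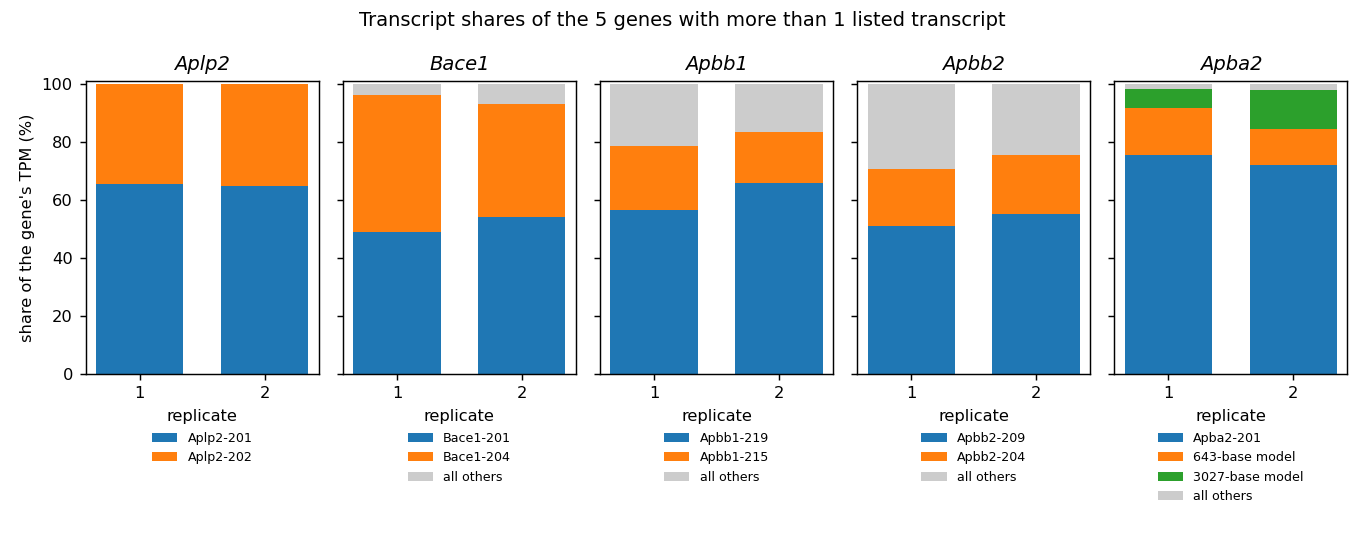
Share of each gene's TPM (percent, stacked to 100) held by its listed transcripts in each replicate, for the 5 genes with more than 1 listed transcript. Aplp2 shares are alike in both pools (65.46 and 64.94% for Aplp2-201), whereas the leading Apbb1 transcript holds 56.35% in replicate 1 and 65.79% in replicate 2.

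Among the adaptors of the cytoplasmic tail, 1 member led each family. Apbb1 (Fe65; ENSMUSG00000037032, chr7:105558483-105581653, minus strand), which binds the App tail and can act with it in the nucleus, stood at 250.27 and 212 TPM, a mean of 231 ± 26.9 TPM. Apbb2 (ENSMUSG00000029207, chr5:66298703-66618784, minus strand), its close relative, had 84.2 and 83.8 TPM, a mean of 84.0 ± 0.297 TPM. The log2 ratio of Apbb1 to Apbb2 was 1.46 ± 0.16, which is 2.74-fold, and Apbb1 made up 74.8% and 71.7% of their sum. Both values take gene totals. Transcripts annotated without coding bases held 64.3% and 64.6% of Apbb2 TPM, against 1.14% and 0.971% of Apbb1 TPM. Apbb3 was not analysed here.

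The X11 family was more uneven. Apba2 (ENSMUSG00000030519, chr7:64501706-64753878, plus strand), a neuronal adaptor that links App to synaptic vesicle proteins, had 141 and 126 TPM, a mean of 133 ± 10.3 TPM. Apba1 (ENSMUSG00000024897, chr19:23758887-23949596, plus strand), also a neuronal X11 protein, had 5.48 and 4.66 TPM, a mean of 5.07 ± 0.580 TPM. Apba1 thus lay 26.3-fold below Apba2 (log2 -4.72 ± 0.05). The broadly expressed family member Apba3 stood between them at 23.4 ± 0.552 TPM. Of the summed TPM of all 3, Apba2 held 82.4% ± 0.540, Apba3 14.5% ± 0.678 and Apba1 3.13% ± 0.138.

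Apbb1 was listed with 19 transcripts. Apbb1-219, a full-length coding model of 710 codons, held 56.4% and 65.8%, a mean of 61.1% ± 6.68. Apbb1-215, a coding model of 451 codons that starts 12.4 kb inside the gene, held 22.2% and 17.7%, a mean of 19.9% ± 3.18. Transcripts that start more than 1 kb inside the gene together held 38.5% of Apbb1 TPM in replicate 1 and 28.6% in replicate 2. Apbb1-215 has 1882 bases, of which 71 are not in Apbb1-219, and Apbb1-219 has 879 bases that are not in Apbb1-215.

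Apbb1 also carries a microexon of 6 bases, exon 9 of Apbb1-219 (chr7:105565946-105565951, minus strand), whose inclusion is known as a neuronal feature of Fe65. Among the listed transcripts that span it, 7 hold it and 5 lack it. Those that hold it summed to 223 and 189 TPM and those that lack it to 21.1 and 17.9 TPM. Inclusion was 91.3% and 91.4%, a mean of 91.4% ± 0.0230. These shares rest on the authors' assignment of reads to transcripts. The main transcript without the microexon, Apbb1-217, had 537 and 430 expected counts with posterior SDs of 148 and 104, and it also differs from Apbb1-219 in its first exon. The authors' posterior mean estimates put inclusion of the microexon at 90.0% and 89.2%. The 2 junction sequences are shown with 30 bases of exon on each side; capitals mark the microexon.
Apbb1 with microexon: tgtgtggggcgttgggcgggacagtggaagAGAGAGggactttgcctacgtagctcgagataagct
Apbb1 without microexon: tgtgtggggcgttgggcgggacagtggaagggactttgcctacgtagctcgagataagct

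Apbb2 was listed with 21 transcripts, and its leading one was not coding. Apbb2-209 is annotated as a processed transcript, starts 281 kb inside the gene and held 51.1% and 55.3%, a mean of 53.2% ± 2.93. It held 30.1% and 32.4% of the gene's expected counts. The full-length coding model Apbb2-204, with 737 codons, held 19.5% and 20.1% of TPM and 48.5% and 49.7% of counts. Of 1638 bases of Apbb2-209, 217 are not in Apbb2-204. Which of the 2 leads therefore depends on whether molecules (TPM) or reads (counts) are counted, in both pools. Transcripts annotated without coding bases held 64.3% and 64.6% of Apbb2 TPM, and 68.3% and 68.2% with those annotated for nonsense-mediated decay.

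Apba2 had 5 listed transcripts, of which only Apba2-201 has a structure in GENCODE M21. Apba2-201, with 750 codons, held 75.5% and 71.9%, a mean of 73.7% ± 2.55. A 643-base model (ENSMUST00000137732) held 16.3% and 12.5%, and a 3027-base model (ENSMUST00000107507) held 6.49% and 13.4%. For Aplp1, Bace2, Apba1 and Itm2b, as for App, 1 transcript was listed, so no share was measured.

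**Figure D3:**
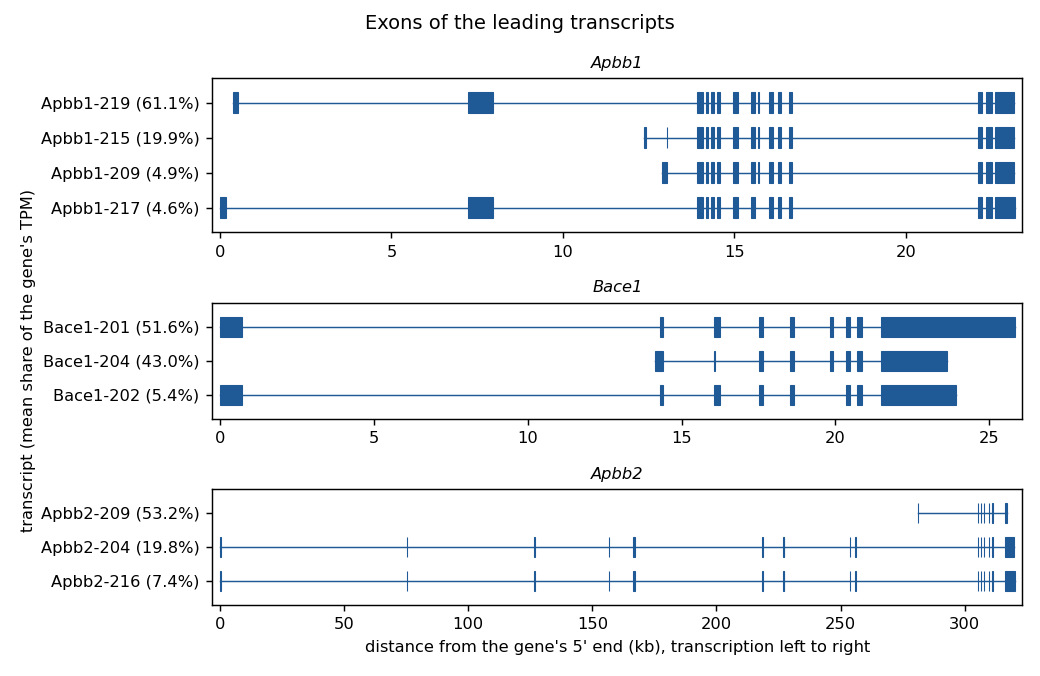
Exon structures of the leading transcripts of Apbb1, Bace1 and Apbb2, drawn to scale from the 5′ end of each gene (kb), with the mean share of the gene's TPM in brackets. Apbb1-215, Bace1-204 and Apbb2-209 begin well inside their genes and share most of their exons with a longer model.

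Itm2b (ENSMUSG00000022108, chr14:73362226-73385289, minus strand), which encodes BRI2, a membrane protein known to bind App and reduce its cutting, was the second highest of the 10 genes. Its levels were 433 and 521 TPM, a mean of 477 ± 62.5 TPM. Its relative Itm2c had 139 and 125 TPM and Itm2a 99.2 and 146 TPM. Itm2b made up 64.5% and 65.8% of the family's summed TPM, and it lay above Itm2c by 1.85 ± 0.30 and above Itm2a by 1.98 ± 0.21 on the log2 scale. It was 1.97-fold above App (log2 0.98 ± 0.17). In Itm2b replicate 2 was the higher pool, and in Aplp1 it was the lower one, so Aplp1 led the 10 genes in replicate 1 and Itm2b in replicate 2.

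In order of mean level the genes ran Aplp1, Itm2b, App, Apbb1, Aplp2, Apba2, Apbb2, Bace1, Apba1, Bace2. Neighbours in this order had separate ranges over the 2 pools except for Aplp1 with Itm2b and App with Apbb1, which overlapped and changed places. Of the 10 genes, 8 stood at 10 TPM or more in both pools, a level that 8776 of all 21474 protein-coding genes reached (40.9%). The median of the 10 genes was 147 TPM, against 21.9 TPM for the 13038 protein-coding genes at 1 TPM or more in both pools. The genes were not drawn at random, so this is a description of their levels.

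The difference between pools was estimated at less than 2-fold for all 10 genes, imprecisely for Bace2. It was measured as the log2 ratio of TMM-scaled counts, replicate 2 minus replicate 1, with a 95% counting interval that covers counting error only. At a mean of 50 counts or more all 10 could be tested, and 0 differed by 2-fold or more, where 1.38% of all 13929 genes tested did. The interval lay above equality for 2 genes, where it did so for 26.5% of all genes tested. These were Itm2b, at 0.25 with an interval of 0.22 to 0.29, and Aplp2, at 0.09 with 0.05 to 0.13. The interval lay below equality for 5 genes, where it did so for 24.1% of all genes tested. Among these were Apba1 at -0.25 (-0.42 to -0.08), Apbb1 at -0.21 (-0.25 to -0.17) and Aplp1 at -0.13 (-0.15 to -0.10). Apba2 at -0.14 (-0.19 to -0.09) and Bace1 at -0.10 (-0.17 to -0.04) were the others. App (0.01, interval -0.02 to 0.05), Apbb2 (-0.02, interval -0.08 to 0.05) and Bace2 (0.37, interval -0.20 to 0.95) had intervals that included equality. Counting intervals narrow as counts rise, and the mean counts of the 10 genes ran from 53.5 for Bace2 to 19966.5 for Aplp1. The shares of all genes tested were not matched for count, here and for the markers and gene lists below.

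**Figure D4:**
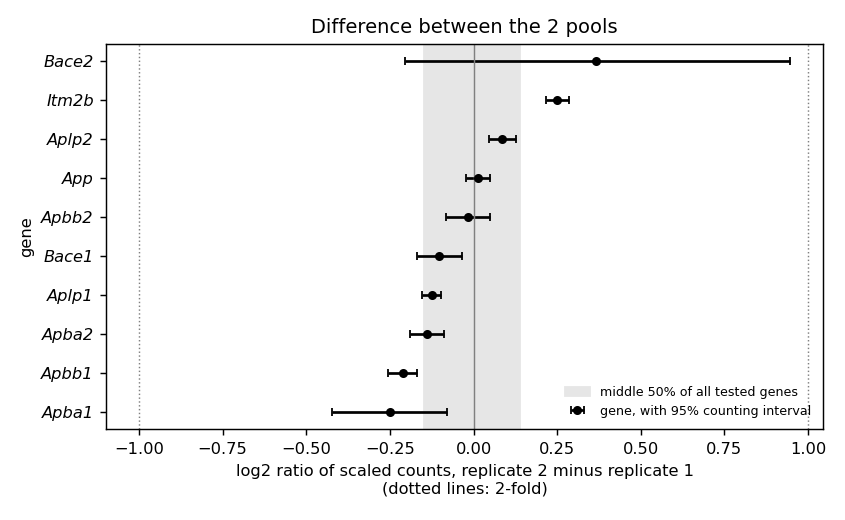
Log2 ratio of scaled counts, replicate 2 minus replicate 1, for each of the 10 genes with its 95% counting interval; the grey band holds the middle 50% of all tested genes (-0.15 to 0.14) and dotted lines mark 2-fold. No gene reaches 2-fold, the widest interval is that of Bace2 (-0.20 to 0.95), and scaling on spike-in RNA would put all 10 above equality.

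The median ratio of the 10 genes was -0.06, against 0.01 for all genes tested, and their median distance from equality was 0.13 against 0.14. These directions are relative to the bulk of genes. When the libraries were scaled on the added spike-in RNA, every gene moved up by 0.55 on the log2 scale, and the intervals of all 10 genes then lay above equality. The largest ratios were then those of Bace2 at 0.92 and Itm2b at 0.80. Markers of several cell types also differed between the pools. Of the 4 neuron markers 3 were lower in replicate 2 and 1 was higher (median log2 ratio -0.13), and all 4 radial glia markers were higher (0.32). All 3 dividing-cell markers were higher (0.37), as were all 3 meningeal markers, which summed to 109 and 298 TPM (1.51). The 4 hypothalamus markers were lower, summing to 30.5 and 7.87 TPM (-2.17). Intervals also lay above equality for 3 of 3 erythroid (0.35), 3 of 3 endothelial (0.33), 2 of 2 astrocyte (0.67) and 3 of 4 microglia markers (0.34). They lay below for 3 of 3 tested oligodendrocyte markers (-0.37) and 1 of 2 tested choroid plexus markers (-0.18). Of all genes tested, 26.5% lay above and 24.1% below. The part of these cell types in the ratios of the 10 genes was not tested.

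The enzymes and partners around the family were described with 8 fixed lists that matched 58 genes. Of these, 57 stood at 1 TPM or more in both pools and 47 at 10 TPM or more. Of 57 tested genes, 1 differed by 2-fold or more between pools (background 1.38%), 23 had an interval above equality (background 26.5%) and 19 below (background 24.1%), and the median ratio was -0.01, all relative to TMM scaling as above. That 1 gene was Lin7b, a small scaffold protein that joins X11 and Cask in a complex, with 17.3 and 5.23 TPM from 174 and 51 counts (log2 -1.53, interval -2.02 to -1.08).

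The alpha-secretases compete with Bace1 for App. Adam10, the main one in neurons, had 49.9 and 60.9 TPM, a mean of 55.4 ± 7.78 TPM. Adam9 had 19.3 ± 2.50 TPM and Adam17 16.4 ± 2.06 TPM. Adam10 and Bace1 were the 1 pair of 14 examined that was not apart: the log2 ratio of Adam10 to Bace1 was 0.05 in replicate 1 and 0.47 in replicate 2, a mean of 0.26 ± 0.30. This ratio takes gene totals, and Bace1-204, without a coding sequence, held 47.1% and 38.8% of the Bace1 total. The coding Bace1-201 had 23.73 and 23.75 TPM and the coding Bace1-202 had 1.84 and 3.09 TPM, each below Adam10 in both pools. Transcripts of Adam10 were not examined. All 3 alpha-secretase genes had intervals above equality between pools (median 0.28; 26.5% of all genes tested did), whereas that of Bace1 lay below with TMM scaling and above with spike-in scaling. Adam10 lay 3.37-fold above Adam17.

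All 7 gamma-secretase genes were above 1 TPM in both pools. Psenen and Ncstn, which encode the smallest subunit and the substrate receptor nicastrin, were highest at 99.1 ± 0.976 and 92.6 ± 1.19 TPM. The lowest was Aph1c at 3.63 ± 1.67 TPM; it is a close copy of Aph1b, so the division of reads between them is uncertain. Of the 7 genes, 2 had intervals above equality between pools and 1 below, against 26.5% and 24.1% of all genes tested.

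Sorting genes steer App and Bace1 between cell surface and endosomes. Of these 10, Rtn3, a reticulon known to bind Bace1, was highest at 458 ± 13.3 TPM, followed by the retromer subunit Vps35 at 194 ± 17.3 TPM, and Cd2ap was lowest at 4.59 ± 0.375 TPM. Between pools 5 were higher and 3 lower by their intervals (median 0.08), against the same 26.5% and 24.1% of all genes. Of the 5 BRI-family relatives and proteases, Itm2c was highest at 132 ± 10.1 TPM, followed by Itm2a at 123 ± 33.4 TPM, and Furin, which cuts BRI proteins, was lowest at 3.69 ± 0.0283 TPM. Here 2 were higher and 2 lower, read against the same shares.

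Among adaptor and partner genes of the cytoplasmic tails, the scaffold gene Lin7c had 180 ± 12.2 TPM. Apbb1ip was lowest at 0.62 ± 0.325 TPM. Of 11 matched genes 10 were tested, and 3 had intervals above (26.5% of all genes tested) and 4 below equality (24.1%). Apoe, the lipid carrier, at 249 ± 35.7 TPM and the adhesion protein gene Cntn2 at 118 ± 9.38 TPM led the 8 extracellular partners, and Spon1 was lowest at 14.1 ± 3.27 TPM. Of these 5 were higher and 1 lower, against the same shares of all genes. Among 4 genes of peptide degradation, Ide (insulin-degrading enzyme) had 28.0 ± 2.12 TPM, Ece2 24.2 ± 1.46 TPM and Mme (neprilysin) the lowest level, 3.24 ± 0.396 TPM. Of these 2 were higher and 1 lower, against the same shares.

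Of 10 other known beta-secretase substrates, Sez6, a neuronal membrane protein, was highest at 227 ± 12.7 TPM, and L1cam, an axonal adhesion protein, followed at 81.1 ± 15.0 TPM. The lowest was the sodium channel subunit gene Scn2b at 5.28 ± 0.665 TPM. Between pools 7 of the 10 had intervals below equality (24.1% of all genes tested) and 1 above (26.5%), with a median log2 ratio of -0.20 under TMM scaling. The single gene above was Jag1, a Notch ligand, at 0.50, named here after its value was seen. The neuron and radial glia markers given above moved between the same pools, and their part in the substrate ratios was not tested.

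**Figure D5:**
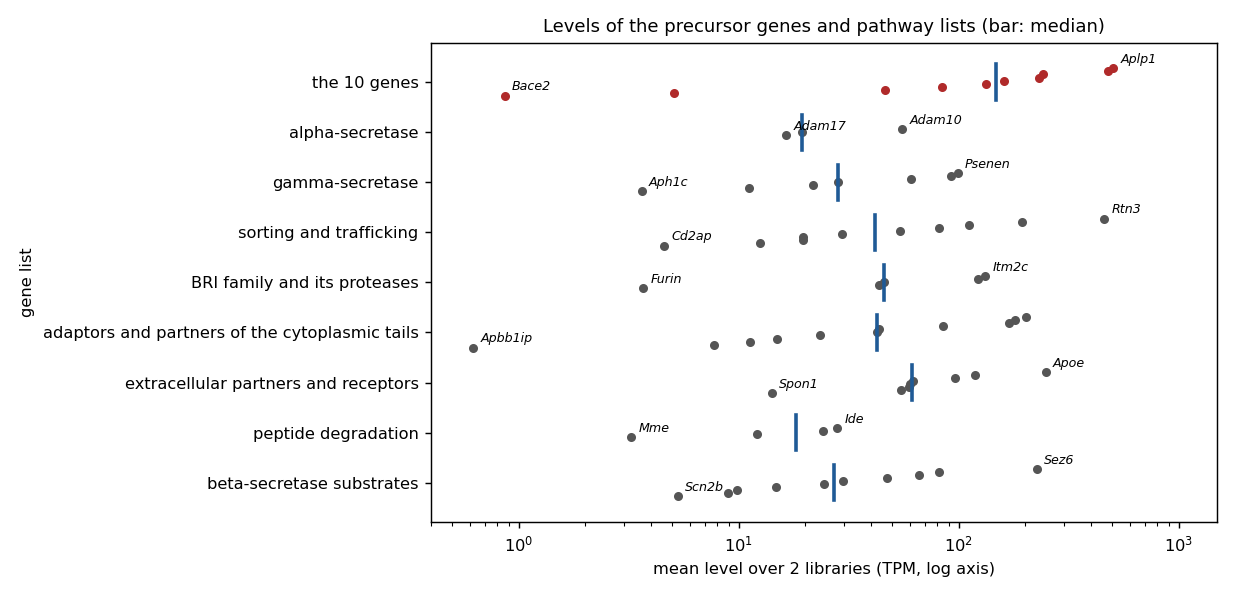
Mean level over the 2 libraries (TPM, log axis) of the 10 genes (red) and of the genes of each of 8 pathway lists (grey), with the list median as a vertical bar and the lowest and, in all but the adaptor list, the highest gene named. The 10 genes run from Bace2 at 0.865 TPM to Aplp1 at 503 TPM, and their median of 147 TPM is the highest of the medians shown.

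The protein-coding genes closest to each member in log2(TPM + 1) over the 2 libraries were listed as a description of level and pool difference only. Closest to App were Psma4, Psmd4 and Cox7b, and closest to Aplp1 were Myl6, Bex2 and Ppp2r1a. Aplp2 was closest to Krtcap2, Ube2d1 and Hmgn3, and Itm2b to Fscn1, Tcf4 and Rps27a. Bace1 was closest to Pepd, Ppip5k2 and Uros, and Bace2 to Bfsp2, Gbp7 and Emilin2. Apbb1 was closest to Actl6b, Gng3 and Sst, and Apbb2 to Zfp444, Atad3a and Pfkl. Apba1 was closest to Wdr76, Ephx1 and Pdzph1. Apba2 was closest to Tulp4, Itm2c and Usp4, so the BRI-family gene Itm2c lay among the nearest genes of a member. With 2 libraries many genes lie about as close, and the distances ran from 0.00280 for Apbb2 and Zfp444 to 0.0804 for Itm2b and Fscn1 among first-placed genes.

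RefSeq start-site windows of 300 bases (GRCm38.p6) were matched for 8 of the 10 genes, 12 windows in all; Bace1 and Bace2 had no entry. The GC content of these windows had a median of 68.7% (56.3 to 82.0%), against 52.7% over all 32851 windows. It exceeded 60% in 10 of the 12 and in 28.6% of all windows. The letters TATAAA, on either strand, were in 0 of the 12 and in 13.6% of all windows. The 2 windows under 60% were both internal starts of Apbb1. Of these, 1 lies 21 bases from the start of Apbb1-215 and the other at the start of Apbb1-209. A further RefSeq start lies 17 bases from that of Apbb2-209. The internal starts of Apbb1-215 and Apbb2-209, which held 19.9% and 53.2% of their genes, are thus annotated in RefSeq as well. An annotated start does not bear on the size of these shares. Only 71 of 1882 bases of Apbb1-215 lie outside Apbb1-219, and 217 of 1638 bases of Apbb2-209 lie outside Apbb2-204.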

How the data were processed

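The 10 genes and the gene lists were chosen with earlier results of these data known. Alignment was to mm10 and quantification on GENCODE M4, per the notes deposited with the samples; no aligner or quantifier is named in the sources used here. The authors deposited expected counts per gene and transcript, not normalized, per the file headers. TPM values were deposited by the authors, scaled to a fixed sum over all listed features, spike-ins included (5.93% and 4.10% of TPM). The authors also deposited FPKM, used as an alternative, and the percent of its gene that each transcript holds, per the file headers. Counting intervals in TPM were Poisson bounds of the rounded expected count, multiplied by the gene's TPM per count.

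Symbols, transcript structures and exon sequences came from GENCODE M21 (GRCm38, the assembly of mm10) by identifier; of 58 listed transcripts of the 10 genes, 53 had a structure and 34 the same length. Expected counts were rounded for edgeR 4.0.16 (TMM scaling; R 4.3.3). Log2 ratios used a prior count of 0.5 and exact Clopper-Pearson 95% intervals; levels of low genes used exact Poisson intervals. Both cover counting error only and leave out variation between pools. They treat reads as independent, which PCR copies are not, so they may be too narrow. A gene was called at a mean count of at least 50, a ratio of at least 2-fold and an interval that excludes equality. The procedure was tested on simulated Poisson counts with known changes. The simulation held no variation between pools beyond counting, so it cannot check the intervals against such variation. All members are named, and of each list the 2 highest genes, the lowest and any called gene; of transcripts, those at 10% or more, plus those with an exon described. Python 3.11.15 with numpy 2.4.6, pandas 2.3.3, scipy 1.17.1 and matplotlib 3.10.9 did the rest. Alternatives were FPKM, TPM without spike-ins, posterior means, other scalings (DESeq2 1.42.0 size factors, totals, spike-ins), count minimums, prior counts and each replicate left out. Of the listed pairs, the one with Apbb3 was not analysed here. Some genes and pairs this rule takes are not reported here.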

Additional observations from a re-analysis of the deposited data

How the results depend on the processing

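Spike-in scaling turned the sign of 6 member ratios between pools, and scaling on total counts that of App, which went from 0.01 to -0.01, both near equality. Spike-in scaling raised the number of members with an interval above equality from 2 to 10 and lowered the number below from 5 to 0; it called 4 pathway genes and 535 genes in all, against 1 and 192. The count of all genes called was 470 at a minimum of 20 counts, 38 at 200 and 1097 with no minimum; at 200 no pathway gene was called (0), because Lin7b was then not tested. Posterior means gave an Apbb1 microexon inclusion of 89.6%, an Apbb2-209 share of 47.8% and an Apbb2-204 share of 18.0%. All 84 recomputed pair ratios kept their sign, and with both pools in use also whether the pair was apart. Of these, 5 fell outside the range of the pools, 3 with a pseudocount of 1 TPM and 2 with posterior means; the ratio of Bace1 to Bace2 moved most, from 5.75 to 4.66. Of 50 member ratios 41 stayed within their counting intervals, and the other 9 left them under spike-in scaling. Levels moved beyond the SD in 16 of 50 recomputations, 10 of them under FPKM, a different unit. Leaving out either replicate kept every level, pair and share within 1 SD of the mean, which with 2 pools follows from the construction. No paired analysis was possible because the series has 1 group. Depth limits Bace2, at 51 and 56 counts, and shared exons limit the transcript shares.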
